A study of Caenorhabditis elegans with 4 samples.

Results

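The genes described here encode the main filament proteins of *C. elegans* muscle. They are the myosin heavy chains of the body wall (*unc-54* and *myo-3*) and of the pharynx (*myo-1* and *myo-2*), paramyosin (*unc-15*), twitchin (*unc-22*) and the actins *act-1*, *act-2*, *act-3* and *act-4*. They were chosen by name, and all 10 were found among the 20380 genes of the count table. From L1 to L4 at 20°C, wild-type N2 worms ate either bacteria carrying the empty L4440 vector (mock) or bacteria expressing double-stranded RNA against *xrn-2*, which encodes a nuclear 5′ to 3′ exoribonuclease. Poly(A) RNA of whole worms was sequenced from 2 cultures of each condition, replicates 1 and 2, giving 4 libraries. No group carries a transgene or a mutation. According to the methods, worms on *xrn-2* RNAi grow more slowly and were collected after a longer time on the food, and mid-L4 was judged by the vulva. The conditions therefore differ in time on the food as well as in the RNAi, and the effects of these cannot be told apart. The methods also describe the second pair of libraries as less well matched in developmental timing than the first. By correlation with an earlier time course, they match both libraries of replicate 2 to later timepoints than those of replicate 1. The replicates therefore also differ in estimated developmental time.

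In muscle, myosin heavy chains assemble around a core of paramyosin into thick filaments, which pull on thin filaments of actin. In the body wall of *C. elegans*, the product of *unc-54* is the major myosin and that of *myo-3* the minor one, placed in the middle of the filament. The pharynx, the feeding pump, builds its filaments from the products of *myo-1* and *myo-2*. Twitchin, a giant kinase related to titin, lies along the thick filament and regulates contraction. The products of *act-1* to *act-4* are nearly identical, and *act-1* served as the RT-qPCR reference of the study. In the annotation of the WBcel235 assembly, *act-1*, *act-2* and *act-3* lie next to each other on chromosome V and each has a longest exon of 781 nt, while *act-4* lies on chromosome X. The genes *myo-1*, *unc-54* and *unc-15* lie on chromosome I, *unc-22* on IV, *myo-3* on V and *myo-2* on X.

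Counted reads numbered 41105706 (replicate 1) and 41998429 (replicate 2) in mock. The corresponding libraries of *xrn-2* RNAi had 48451504 and 43324340. Pairs of values below are given in this order, replicate 1 first. Counts were scaled to the mean total of 43719995, and a scaled count below is a count after this step. The targeted gene *xrn-2* did not check the labels: its scaled counts were 4247 and 6192 in mock, while the libraries labelled *xrn-2(RNAi)* had 5265 and 6032. The condition names below are those of the labels. Mock replicate 2 stood apart from the other libraries. Its 10 most abundant genes took 9.75% of its reads, against 4.69% to 5.27% elsewhere, and the summed scaled count of 7 epidermal marker genes, among them cuticle collagens, was 6473 there and 92540 to 212493 elsewhere. The transcription factor genes of this list did not show such a fall. *elt-3* was highest there, at 1861 against 371 to 1248 elsewhere, and *lin-26* was at 3469 against 4196 to 5001. The other markers of this list were lowest in mock replicate 2. Estimates without this library are given below where they differ by more than 1.5 times. The summed scaled count of 8 germline markers was 62718 in mock replicate 1 and 100058 to 113120 in the others, and that of 7 intestinal markers was 178342 and 214053 in mock, compared with 146951 and 134048 in *xrn-2(RNAi)*. For 7 neuronal markers it was 15293 and 10945 in mock, against 14239 and 15278. Of the germline markers, *glh-1* was lowest in *xrn-2(RNAi)* replicate 2, at 20854 against 23366 in mock replicate 1. The other germline markers were lowest in mock replicate 1. The neuronal sum was lower in *xrn-2(RNAi)* within replicate 1 and higher within replicate 2. By contrast, *snb-1* and *unc-119* were higher within both replicates and *rab-3* lower within both. Single markers of the intestine did not all follow their sum. Within both replicates *pept-1*, *vha-6* and *ifb-2* were lower in *xrn-2(RNAi)*, the last by only -0.01 in replicate 1, and *elt-7* was higher. The direction differed between the replicates for *elt-2*, *ges-1* and *asp-1*. None of the markers in these lists was at 0 in all libraries. The part of these marker differences in the values below was not tested. In whole worms, fewer cells of a type and less RNA per cell cannot be told apart.

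The defining genes of both muscle types were abundant in all 4 libraries. By raw count, *unc-54* ranked between 3 and 6 among all genes in every library and *act-4* between 5 and 8. Together, the 10 genes took 1.36% and 1.79% of the reads in mock, compared with 1.45% and 1.32% in *xrn-2(RNAi)*, with 95% Wilson intervals of at most ± 0.004 percentage points. These intervals cover counting error only. The shares in *xrn-2(RNAi)* thus lay on either side of that in mock replicate 1, and mock replicate 2 was highest.

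Levels were compared between genes per kilobase of annotated exon. The mean over the 4 libraries was 111400 scaled reads per kilobase for *act-4*, 40780 for *unc-54*, 27320 for *unc-15*, 13340 for *act-3*, 11330 for *act-2* and 8109 for *act-1*. It was 3236 for *myo-3*, 1941 for *myo-2*, 1755 for *myo-1* and 1389 for *unc-22*. In this order, *act-4*, *unc-54* and *unc-15* were separated from each other and from the genes below them in every library, and *act-1* was separated from *myo-3*. The ranges over the 4 libraries overlapped for *act-3* and *act-2*, for *act-2* and *act-1*, and for each neighbouring pair among *myo-3*, *myo-2*, *myo-1* and *unc-22*. Within each library, *act-2* was above *act-1*, *myo-3* above *myo-2* and *myo-1* above *unc-22*. Some of these differences were small, such as 1250 for *myo-1* against 1233 for *unc-22* in *xrn-2(RNAi)* replicate 1. The order of *act-3* and *act-2*, and that of *myo-2* and *myo-1*, changed between libraries. Reads that match several actin genes could have been assigned to any of them, as the sources used here do not state how such reads were counted, so the levels of the single actins are uncertain.

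**Figure D1:**
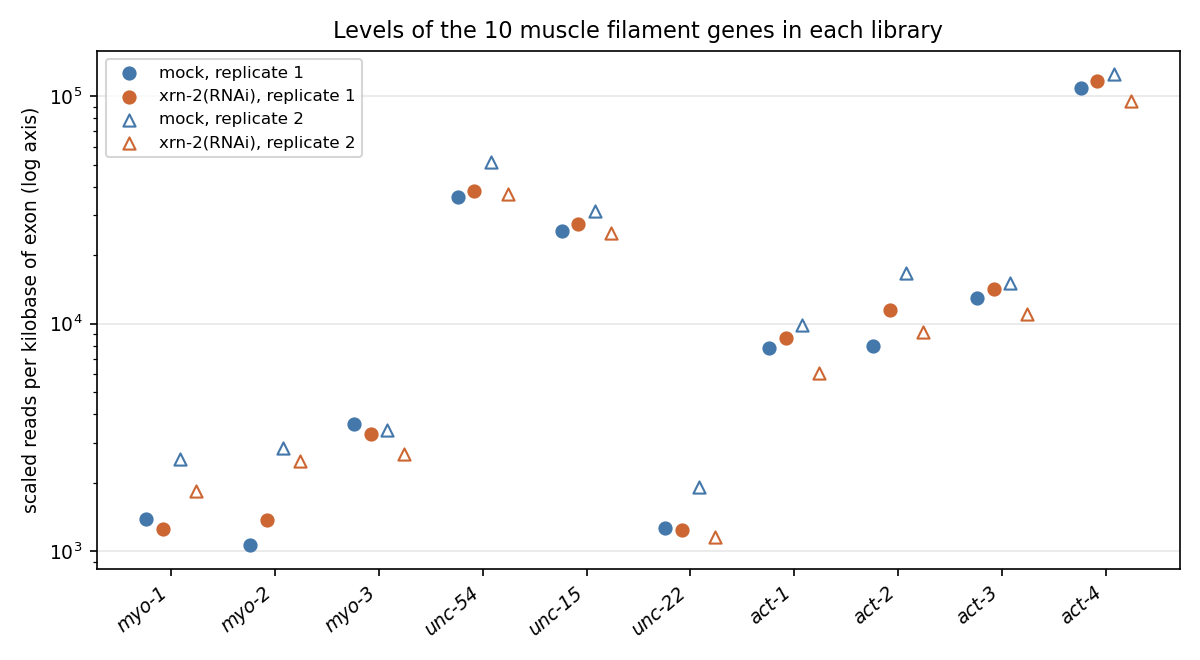
Scaled reads per kilobase of exon (log axis) for the 10 genes in each of the 4 libraries. Blue marks mock and orange *xrn-2(RNAi)*, filled circles are replicate 1 and open triangles replicate 2. The level of *act-4* is between 95390 and 124800, and mock replicate 2 is the highest library for every gene but *myo-3*.

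Among the body wall thick filament genes, *unc-54* had scaled counts of 224453 and 318736 in mock, compared with 238767 and 229990 in *xrn-2(RNAi)*. The means were 271595 ± 66668 (SD, n = 2) and 234379 ± 6206 (SD, n = 2). Mock replicate 2 was the highest, and the other 3 libraries were close together, so the conditions overlapped. The minor myosin gene *myo-3* had scaled counts of 22086 and 20765 in mock, compared with 19907 and 16247 in *xrn-2(RNAi)*. Both *xrn-2(RNAi)* libraries were below both mock libraries here, the nearest values being 19907 and 20765. Paramyosin, *unc-15*, had 87803 and 107111 in mock, compared with 93506 and 85737 in *xrn-2(RNAi)*, again with overlap. Twitchin, *unc-22*, had 29613 and 44555 in mock, compared with 28822 and 26845 in *xrn-2(RNAi)*. Both *xrn-2(RNAi)* libraries were below both mocks, but in replicate 1 the log2 difference was only -0.04. The exons of *unc-22* overlap short stretches of other annotated genes on both strands, and the counting is not stated to use strand, so its count may include reads of these.

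With library totals, the pharyngeal myosins differed more between replicates than between conditions. The replicates also differ in the developmental time that the methods estimate, and the part of this was not tested. The scaled count of *myo-1* was 8958 in mock and 8071 in *xrn-2(RNAi)* of replicate 1, and 16453 and 11835 in replicate 2. That of *myo-2* was 6730 and 8700 in replicate 1, and 17963 and 15780 in replicate 2. For both genes, each library of replicate 2 was above each library of replicate 1. On the log2 scale, replicate 2 exceeded replicate 1 by 0.88 in mock and 0.55 in *xrn-2(RNAi)* for *myo-1*, and by 1.42 and 0.86 for *myo-2*. After TMM scaling, described below, these values were 0.98 and 0.46 for *myo-1*, and 1.52 and 0.76 for *myo-2*. The conditions then differed by -0.32 and -0.85 for *myo-1*, and by 0.20 and -0.56 for *myo-2*. For *myo-1* the replicates thus did not differ clearly more than the conditions with TMM. The replicate term of the edgeR model was 0.72 ± 0.30 (SE) for *myo-1* and 1.14 ± 0.34 (SE) for *myo-2*, with an adjusted p of 0.52 for each. At an unadjusted p under 0.05, this term picked *myo-2* alone of the 10 genes, beside 9.31% of all 16178 genes tested. After adjustment it picked 0 genes. The test was added after the values had been seen. For the other 8 genes the replicate term was between -0.19 and 0.38.

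Other pharyngeal genes did not all share this order. The troponin T gene *tnt-4* did, with scaled counts of 1609 and 1726 in replicate 1 and 3767 and 2836 in replicate 2, mock first. The libraries of the replicates overlapped for the troponin I gene *tni-4* (3135 and 2150, then 3885 and 2543) and the troponin C gene *tnc-2* (1370 and 807, then 1516 and 952). The transcription factor gene *ceh-22* was lower in replicate 2 than in replicate 1, by log2 differences of -0.06 in mock and -0.61 in *xrn-2(RNAi)*. These genes were named after their values had been seen.

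The actins had the same order of libraries for *act-1*, *act-3* and *act-4*, with mock replicate 2 highest and *xrn-2(RNAi)* replicate 2 lowest. For *act-1* the scaled counts were 9897 and 12497 in mock, compared with 10915 and 7691 in *xrn-2(RNAi)*. For *act-3* they were 20287 and 23568 in mock, compared with 22042 and 17211 in *xrn-2(RNAi)*. For *act-4*, the most abundant of them, they were 174500 and 199798 in mock, compared with 186686 and 152721 in *xrn-2(RNAi)*. For these 3 genes, *xrn-2(RNAi)* replicate 1 lay between the mocks and replicate 2 below both. The scaled counts of *act-2* were 10218 and 21331 in mock, compared with 14686 and 11798 in *xrn-2(RNAi)*, with both *xrn-2(RNAi)* libraries between the mocks.

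The comparison of the conditions asks whether these genes respond to *xrn-2* RNAi. All 10 genes passed the filter on low counts. With edgeR and the replicate as a block, 0 of the 10 genes passed the adjusted threshold of 0.05, beside 0.0% of the 16178 genes tested. Before adjustment, with p under 0.05, the same test picked 0 of the 10 genes and 2020 genes in all. DESeq2 called 0 of the 10 as well, although it called 8.9% of the genes tested as lower. The 10 estimated log2 fold changes, *xrn-2(RNAi)* against mock, were all below 0, between -0.66 for *unc-22* and -0.18 for *myo-2*, beside 45.95% of all genes tested with an estimate below 0. The median of the 10 estimates was -0.45, and the median of all genes tested was 0.05. In each case the 95% interval included 0, with a half-width of 0.88 to 1.51. These intervals are not adjusted for the number of genes tested, and the smallest edgeR adjusted p of all genes was 0.25. On simulated data at the common dispersion of these libraries, 0.5% of log2 changes of 2 were recovered. At that dispersion, changes up to a log2 of 2 were thus hardly detectable in the edgeR fit. The simulation gave every gene the common dispersion and no difference between replicates. The recovery for these 10 genes at their own spread was not computed. Without mock replicate 2 and without the block, where the lone mock library is assumed to vary like the other group, the median of the 10 genes was -0.23 and that of all genes 0.03, and the estimates of *myo-2* and *act-2* were 0.62 and 0.15.

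By gene, the edgeR log2 fold change was -0.46 ± 0.51 (SE) for *unc-54*, with an adjusted p of 0.80. It was -0.52 ± 0.31 (SE) for *myo-3*, with an adjusted p of 0.61, and -0.58 ± 0.30 (SE) for *myo-1*, which had the smallest adjusted p of the 10 genes, 0.55. For *unc-22* it was -0.66 ± 0.40 (SE), with an interval from -1.82 to 0.51. For *unc-15* it was -0.39 ± 0.42 (SE), and for *myo-2* -0.18 ± 0.34 (SE). The actins were close to one another, at -0.55 ± 0.38 (SE) for *act-1*, -0.44 ± 0.52 for *act-2*, -0.44 ± 0.36 for *act-3* and -0.42 ± 0.47 for *act-4*. Without mock replicate 2 and the block, the estimates were -0.16 for *unc-54*, -0.51 for *myo-3*, -0.08 for *myo-1*, -0.31 for *unc-22*, -0.19 for *unc-15*, -0.31 for *act-1*, -0.27 for *act-3* and -0.26 for *act-4*. Each of these but that of *myo-3* was smaller by more than 1.5 times. None of the 10 passed the threshold, and an interval that includes 0 does not show that a gene was unchanged.

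The replicates gave different values. With library totals, the log2 fold change within replicate 1 was above 0 for 7 of the 10 genes and had a median of 0.09, from -0.15 for *myo-1* and *myo-3* to 0.52 for *act-2*. Within replicate 2 it was below 0 for all 10 genes and had a median of -0.46, from -0.85 for *act-2* to -0.19 for *myo-2*. Library totals put the median of all genes at 0.17 in replicate 1 and 0.37 in replicate 2. After TMM scaling, which places the median of all genes at 0.01 in both replicates, the median of the 10 genes was -0.08 in replicate 1 and -0.83 in replicate 2. Only *myo-2* and *act-2* were then above 0 in replicate 1, at 0.20 and 0.35. The 2 mock libraries differed from each other by up to 1.42 on the log2 scale of library totals, in *myo-2*, and by a median of 0.42 over the 10 genes, replicate 2 against 1.

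**Figure D2:**
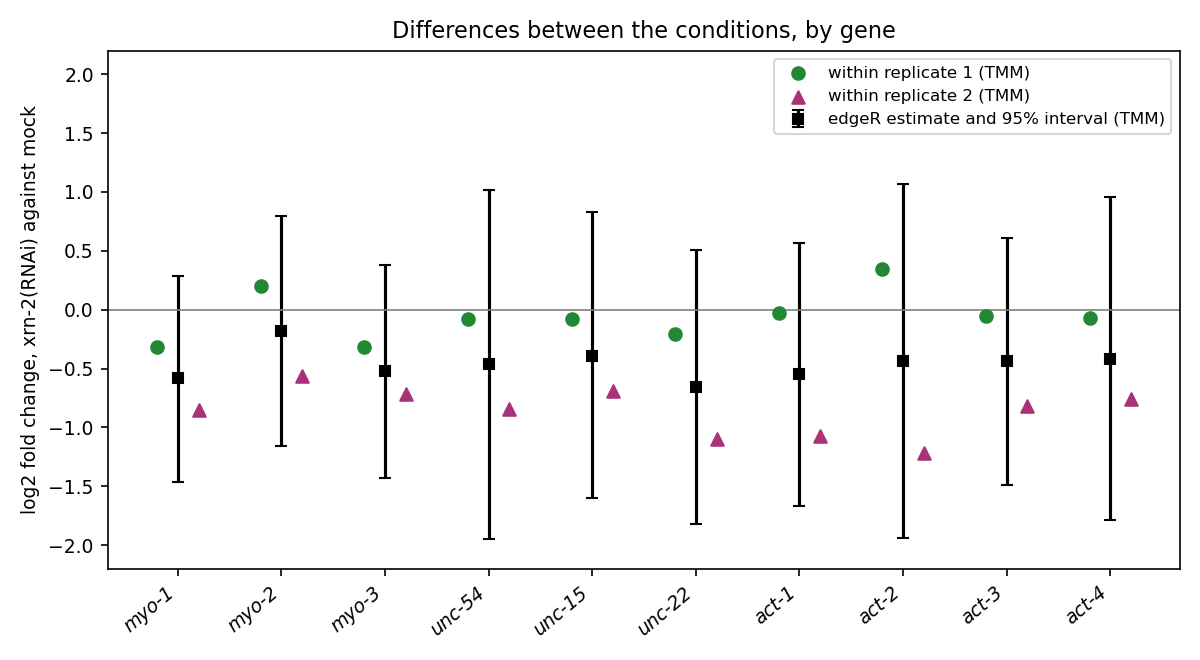
Log2 fold change of each gene, *xrn-2(RNAi)* against mock, with TMM scaling. Black squares and bars are the edgeR estimates with 95% intervals over 4 libraries, green circles the difference within replicate 1 and purple triangles that within replicate 2. The bars cross 0 for all 10 genes, and the values of replicate 2 are between -1.22 and -0.56.

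With counts scaled to library totals, both *xrn-2(RNAi)* libraries were below both mock libraries for 2 of the 10 genes, *myo-3* and *unc-22*. This was so for 10.3% of the genes tested. They were above both mocks for 0 of the 10 genes, beside 35.3% of the genes tested. After TMM scaling, 7 of the 10 genes were lower without overlap, beside 19.9% of the genes tested. The count therefore depends on the scaling. Leaving out mock replicate 2, the libraries of *xrn-2(RNAi)* were both below mock replicate 1 for 2 of the 10 genes with library totals, beside 32.9% of the genes tested. After TMM scaling, mock replicate 1 was the lower mock for all 10 genes, by 0.02 to 1.52 on the log2 scale. The 7 genes lower without overlap therefore lie below mock replicate 1 by definition, which is no separate check of leaving out mock replicate 2. The TMM factors were also computed with that library included. The share of all genes below mock replicate 1 was not computed with TMM.

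Ratios between genes of one library do not depend on how libraries are scaled. Per kilobase, *unc-54* exceeded *myo-3* by 9.999 and 15.1 times in mock, compared with 11.8 and 13.9 times in *xrn-2(RNAi)*. The ratio of *unc-54* to *unc-15*, the major myosin to paramyosin, was 1.41 and 1.64 in mock, compared with 1.41 and 1.48 in *xrn-2(RNAi)*, a log2 range of 0.22, the narrowest of the 10 ratios computed. The ratio of the pharyngeal to the body wall myosins was 0.0616 in mock and 0.0628 in *xrn-2(RNAi)* of replicate 1, and 0.0983 and 0.109 in replicate 2. It thus differed between the replicates and by little between the conditions. The ratio of *myo-2* to *myo-1* was 0.766 and 1.11 in mock, compared with 1.10 and 1.36 in *xrn-2(RNAi)*, higher in *xrn-2(RNAi)* within each replicate by 0.52 and 0.29 on the log2 scale. The value of *xrn-2(RNAi)* replicate 1 was nonetheless just below that of mock replicate 2. These ratios have 2 values per condition, for which an exact permutation test cannot go below p = 0.333, and were not tested.

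Among the actins, *act-4* exceeded *act-1* per kilobase by 13.9 and 12.6 times in mock, compared with 13.5 and 15.7 times in *xrn-2(RNAi)*. The ratio of *act-3* to *act-1* was between 1.53 and 1.82 in the 4 libraries. The ratio of *act-2* to *act-1* varied more, at 1.02 and 1.68 in mock, compared with 1.33 and 1.51 in *xrn-2(RNAi)*. The ratio of *act-4* to *unc-54*, the most abundant actin to the most abundant myosin, was 3.01 and 3.03 in replicate 1 and 2.43 and 2.57 in replicate 2, mock first. It differed by less between the conditions than between the replicates.

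**Figure D3:**
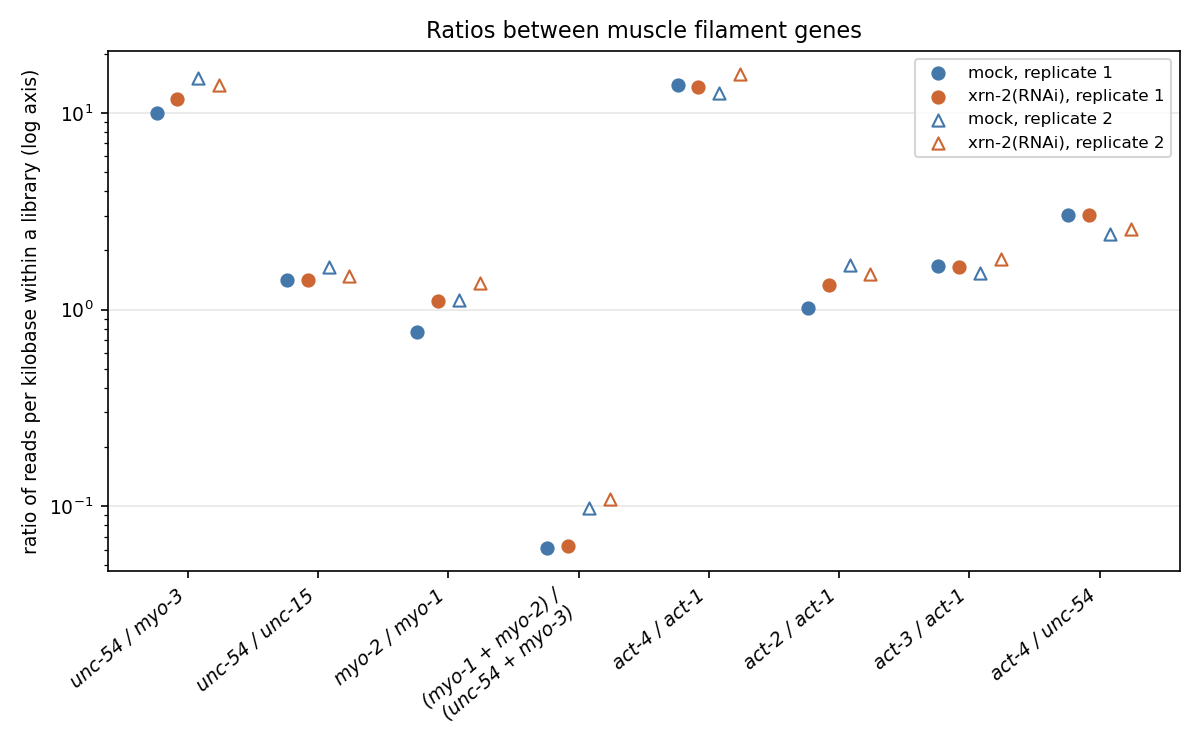
Ratios of reads per kilobase between genes of the same library (log axis), with blue for mock, orange for *xrn-2(RNAi)*, filled circles for replicate 1 and open triangles for replicate 2. For the pharyngeal against the body wall myosins, the replicate 1 libraries are at 0.0616 and 0.0628 and the replicate 2 libraries at 0.0983 and 0.109.

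Other genes of the contractile apparatus were examined in 6 lists with 44 genes. By edgeR, 0 of the 44 were called after adjustment. With an unadjusted p under 0.05, 8 of the 44 were lower and 0 were higher, beside 5.83% of all genes tested that were lower at this level. DESeq2 on the same genes called 12 of the 44 as lower and 0 as higher, beside the 8.9% of all genes tested that it called lower. Run on all genes without the count filter, it called 0 of the 44, beside 1.83% of genes called lower. Without mock replicate 2 and the block, 3 of the 44 had an unadjusted p under 0.05 in edgeR, beside 17.4% of all genes tested in that fit. All 3 were lower, while the 17.4% counts both directions. In the main fit, the estimates were below 0 for 43 of the 44 genes, beside 45.95% of all genes tested. Without mock replicate 2 and the block, *tnt-3*, *tnt-4* and *unc-94* were above 0, at 0.25, 0.27 and 0.16. The median of the 44 genes in that fit was -0.63, beside 0.03 for all genes tested. With library totals, both *xrn-2(RNAi)* libraries were below mock replicate 1 for 32 of the 44, beside 32.9% of the genes tested. The main-fit median was -0.60 for the 44 genes, beside -0.45 for the myosins, paramyosin, twitchin and actins. No test was made of the difference between these medians.

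In the attachment list, the proteins that tie filaments to the muscle membrane and the matrix outside, 5 of 13 genes had an unadjusted p under 0.05 and the median was -0.76. The lowest was *unc-52*, which encodes perlecan of the basement membrane, with scaled counts of 39116 and 40193 in mock, compared with 18852 and 20067 in *xrn-2(RNAi)*. Its conditions did not overlap, and its log2 fold change was -1.30 ± 0.32 (SE). The adjusted p was 0.30 by edgeR and 1.06e-09 by DESeq2 on the same genes. Run on all genes without the count filter, DESeq2 did not call it. The highest was *pat-3*, the beta integrin, at -0.39 ± 0.25 (SE). The other 4 at an unadjusted p under 0.05 were *unc-97* (PINCH) at -1.11, *deb-1* (vinculin) at -0.91, *pat-2* (alpha integrin) at -0.79 and *pat-6* (parvin) at -0.70, named after their values had been seen.

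Of the 14 thin filament genes, 13 had estimates below 0 and 3 had an unadjusted p under 0.05. The lowest was *tni-1*, a troponin I, at -1.16 ± 0.30 (SE), and the highest *tnt-3*, a troponin T, at 0.18 ± 0.23 (SE). The other 2 at this level were *tnc-2* and *tni-4*, a pharyngeal troponin C and troponin I, at -0.99 and -0.85, named after their values had been seen. In the thick filament list, all 8 estimates were below 0, from -0.76 ± 0.40 (SE) for *mlc-1*, a myosin light chain, to -0.25 ± 0.25 (SE) for *unc-82*, a kinase. The titin-like genes *ketn-1* and *ttn-1* were at -0.96 ± 0.47 (SE) and -0.61 ± 0.25 (SE), and at -0.49 and -0.32 without mock replicate 2 and the block. Among 4 genes of calcium handling, *csq-1* (calsequestrin) was lowest at -0.59 and *unc-68* (the ryanodine receptor) highest at -0.23. Without mock replicate 2 and the block the order differed, with *egl-19*, a calcium channel, lowest at -0.76 and *sca-1*, a calcium pump, highest at -0.25. In that fit *unc-68* was at -0.39. Of the muscle transcription factors, *ceh-22* of the pharynx was at -0.83, and *hlh-1*, the MyoD homologue, and *unc-120*, an SRF homologue, were at -0.46 each. In the fit without mock replicate 2, *unc-120* was at -0.86, the lowest of its list, and the kinase gene *unc-82* at -0.41. The extremes of other lists also changed in that fit. The thick filament list then ran from *unc-98* at -0.81 to *unc-89* at -0.15, and the highest thin filament gene was *tnt-4* at 0.27. The attachment list ran from *unc-97* at -1.25 to *zyx-1* at -0.31. These genes were named after their values had been seen.

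**Figure D4:**
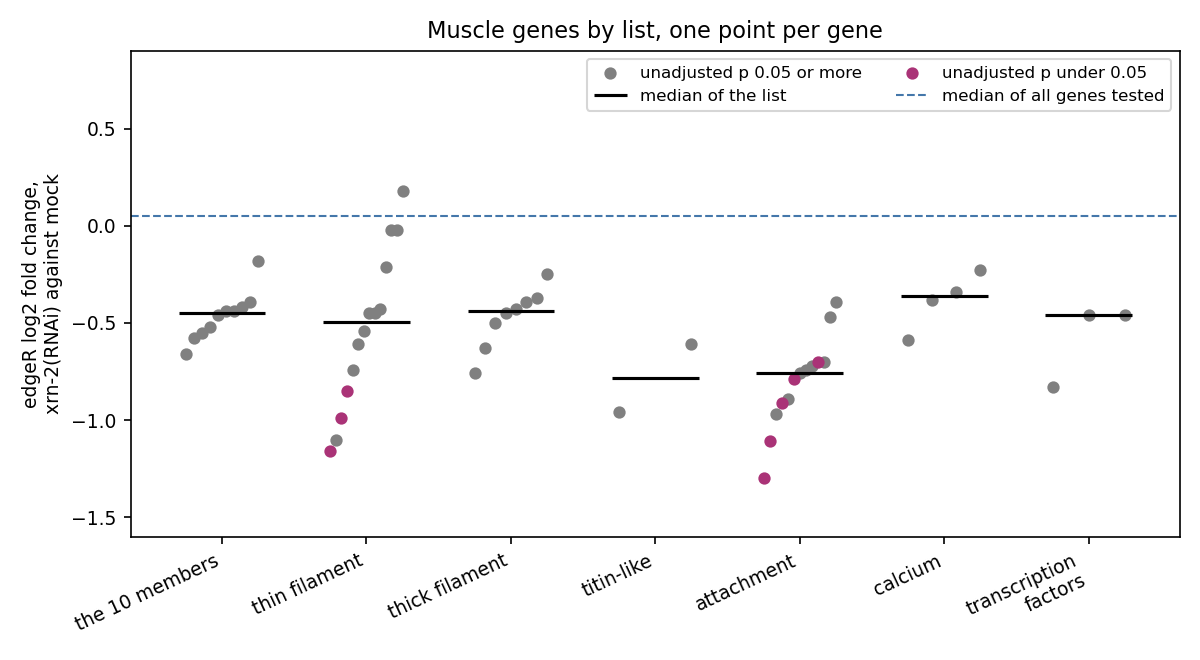
EdgeR log2 fold change, *xrn-2(RNAi)* against mock, of the 10 filament genes and of 44 other muscle genes in 6 lists, with 1 point per gene. Black lines are list medians, the dashed line is the median of all genes tested (0.05), and purple points have an unadjusted p under 0.05. Only *tnt-3*, at 0.18, lies above 0, and 0 genes passed after adjustment.

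Actin and myosin genes that act outside sarcomeres had other values. The intestinal actin gene *act-5* had scaled counts of 44150 and 93266 in mock, compared with 32440 and 17783 in *xrn-2(RNAi)*, without overlap, and a log2 fold change of -1.69 ± 0.71 (SE), with an edgeR adjusted p of 0.47 and a DESeq2 adjusted p of 0.035. The nonmuscle myosin genes *nmy-1* and *nmy-2*, which act in contractility of epithelia and early embryos, were at 0.02 ± 0.33 (SE) and 0.58 ± 0.31 (SE). The scaled counts of *nmy-2* were 12670 and 21474 in mock, compared with 23607 and 37744 in *xrn-2(RNAi)*, without overlap, and its adjusted p was 0.56 by edgeR and 0.043 by DESeq2. Without mock replicate 2 and the block, the estimates were -1.02 for *act-5*, 0.25 for *nmy-1* and 1.04 for *nmy-2*.

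The primers with which the study measured *act-1* are shown because *act-1* was the denominator of its RT-qPCR. They are written 5′ to 3′, and no sequence at hand allowed a check of whether they also match the other actins on chromosomes V and X.
act-1 forward: gttgcccagaggctatgttc
act-1 reverse: caagagcggtgatttccttc

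The level of *act-1* differed by less between the conditions in replicate 1 than in replicate 2. Its log2 fold change was 0.14 in replicate 1 and -0.70 in replicate 2 with library totals, and -0.03 and -1.07 after TMM scaling. Its log2 range over the 4 libraries was 0.70 with library totals and 1.07 with TMM, and 27.4% and 53.8% of the genes tested had a smaller range. Among 6 other genes used as RT-qPCR references in *C. elegans*, the range with library totals was smaller for *tba-1* (0.46), *Y45F10D.4* (0.59) and *cdc-42* (0.60), and larger for *eft-3* (0.76), *pmp-3* (0.83) and *ama-1* (1.76). With TMM, *tba-1* (0.17) and *cdc-42* (0.30) varied least, and of the 6 genes only *ama-1*, which encodes the large subunit of RNA polymerase II, varied more than *act-1*. Over the other 3 libraries, without mock replicate 2, the range of *act-1* was 0.50 with library totals and 0.63 with TMM, and *Y45F10D.4* (0.69) then also varied more than *act-1* with TMM. Among the actins, *act-4* and *act-3* had smaller ranges than *act-1*, at 0.39 and 0.45 with library totals.

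Folds relative to *act-1* were computed for the genes whose RT-qPCR values the study divides by it. Relative to *act-1* in these libraries, *xrn-2* in *xrn-2(RNAi)* was 1.12 times its mock level in replicate 1 and 1.58 times in replicate 2. The corresponding values were 0.954 and 1.47 for *rpl-43*, 0.881 and 1.36 for *ran-4*, and 0.831 and 1.84 for *R05D11.5*. For *cri-3* they were 0.557 and 1.08, and for *clpf-1* 2.58 and 2.43. Of these 6 genes, *rpl-43*, *ran-4*, *R05D11.5* and *cri-3* were, relative to *act-1*, below their mock level in replicate 1 and above it in replicate 2. Without the division, their log2 fold changes with TMM scaling were below 0 in both replicates. They were -0.87 and -0.96 for *cri-3*, -0.21 and -0.63 for *ran-4*, -0.10 and -0.52 for *rpl-43*, and -0.30 and -0.19 for *R05D11.5*. That of *act-1* was -0.03 and -1.07, and that of *xrn-2* was 0.14 and -0.41. These signs depend on the scaling. With library totals and no division, *rpl-43* was at 0.07 and -0.15 and *R05D11.5* at -0.13 and 0.18. In that scaling *cri-3* (-0.70 and -0.59) and *ran-4* (-0.04 and -0.26) were below 0 in both replicates. For *clpf-1* the log2 fold changes were 1.33 and 0.21 with TMM scaling and 1.37 and 1.28 relative to *act-1*, so the replicates were closer after the division. All values of replicate 2 rest on mock replicate 2. These are ratios of sequencing counts, not RT-qPCR values, and no test was made.

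**Figure D5:**
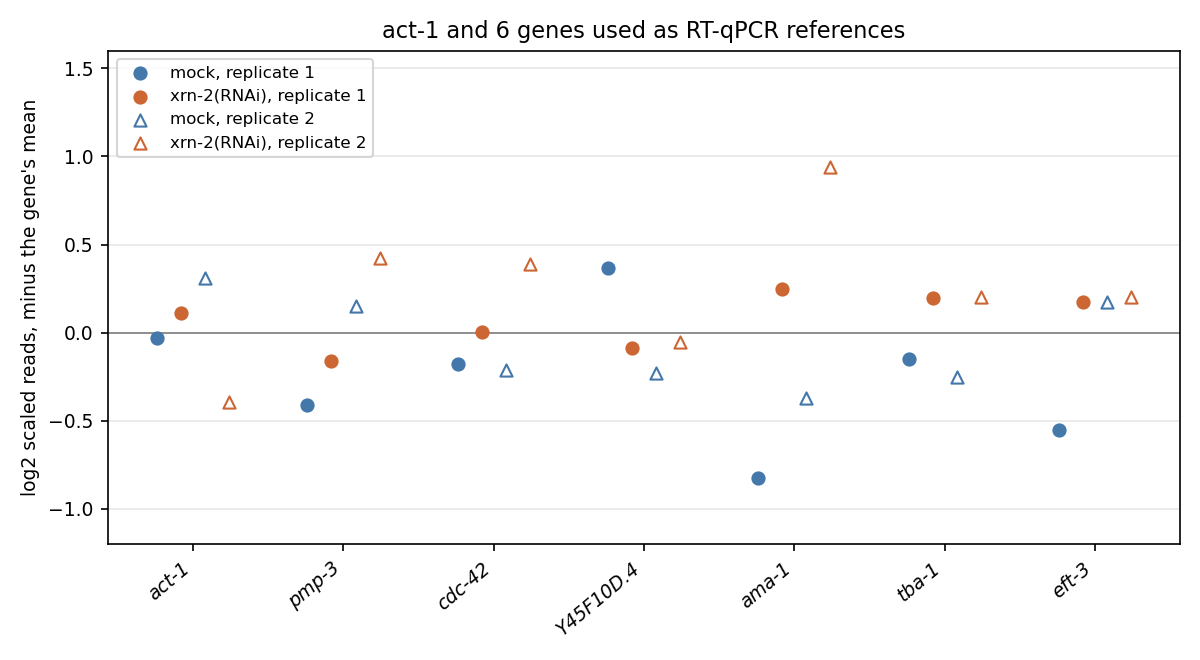
Log2 scaled reads (library totals, pseudocount of 8) of *act-1* and 6 reference genes in each library, minus the mean of the gene over the 4 libraries. Blue marks mock and orange *xrn-2(RNAi)*, filled circles are replicate 1 and open triangles replicate 2. For *act-1*, *xrn-2(RNAi)* replicate 2 is lowest and mock replicate 2 highest, 0.70 apart, and for *ama-1* the range is 1.76.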

How the data were processed

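The authors made TruSeq poly(A) libraries, aligned the reads to ce10 with QuasR (spliced alignment) and counted reads overlapping the annotated WS220 exons of each gene. They deposited these counts as whole numbers without normalization. Strand use and the handling of reads that match several places are not given in the sources used here. Samples were assigned by their titles. Exon lengths and neighbours came from the annotation of WBcel235. Coordinates are left out, as that assembly is not ce10.

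Scaling set every library to the same total, the mean of the 4, and log2 fold changes within a replicate used a pseudocount of 8, as in the study. The test was the quasi-likelihood F test of edgeR 4.0.16, run in R 4.3.3 (glmQLFit, glmQLFTest, filterByExpr, TMM, Benjamini-Hochberg adjustment over 16178 genes, threshold 0.05), with the replicate as a block. SE was derived from F, as the size of the log2 fold change over the root of F. The pairing comes from the replicate numbers of the labels, and same-numbered libraries deviated together (r = 0.57 across genes). The labels do not say what replicates share beyond a number, and p-values measure the spread between these samples. DESeq2 1.42.0 was the alternative tool. On simulated data with 200 genes changed by a log2 of 2, the fit recovered 98.5% at a dispersion of 0.02 (8 false calls) and 0.5% at 0.21, the common dispersion of these libraries (0 false calls).

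The members and lists were chosen with earlier results of these data known. The text names all members, the highest and lowest gene of each other muscle list, *act-5*, *nmy-1*, *nmy-2* and the reference and *act-1*-normalized genes, and says where others were named after their values were seen. Alternatives covered scaling, filter, block, tool, pseudocount and each library left out.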

Additional observations from a re-analysis of the deposited data

How the results depend on the processing

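No alternative called any of the 10 genes. Leaving out the replicate block also gave 0 called genes in all and 0 of the 10, with a median log2 fold change of the 10 of -0.50 against -0.45. With a library left out, the lone sample of its group is assumed to vary like the other group. Other scaling, no count filter and each library left out gave 0 called genes in edgeR too, while DESeq2 called 2746 genes, and 824 when run on all genes. The plan named DESeq2 but not the genes to run it on, and the filtered run was taken as the main alternative after both counts had been seen. The cause of this difference between the tools was not tested. Of 44 other muscle genes DESeq2 called 12. The median of the 10 genes was -0.18 with library totals and -0.83 to -0.08 over the fits with a replicate or library left out. The sign of *myo-2* changed with library totals, to 0.09. Over the fits with a replicate or library left out, *myo-2* ranged from -0.90 to 0.62 and *act-2* from -1.23 to 0.35. Without mock replicate 2 these genes were at 0.62 and 0.15, and without replicate 2 at 0.20 and 0.35. Of the 120 alternative estimates of single genes, 115 were below 0. These are refits of the same libraries, and in the main fit 45.95% of all genes tested were below 0. Genes lower without overlap were 7 with TMM or RLE scaling against 2 with library totals, and the log2 range of *act-1* was 1.07 and 1.09 with TMM and RLE against 0.70, the last 2 added after the data were seen. Depth limits little here, since each of these genes has at least 6328 reads in every library.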
